A study of Mus musculus with 6 samples.

Results

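Translation initiation factors are the proteins that bring the ribosome, the initiator tRNA and the mRNA together at the start codon. The genes described here are the 52 protein-coding mouse genes whose symbol starts with Eif, without the eIF2 kinases, out of 27179 genes in the count table. They comprise 5 Eif1 genes, 11 Eif2 genes, 14 Eif3 genes, 17 Eif4 genes, 4 Eif5 genes and Eif6. They were measured in leukemia cells from C57BL/6 mice given panobinostat, an inhibitor of histone deacetylases, or vehicle for 3 days, with 3 RNA-seq libraries per group. Both groups carried the same leukemia, a single line named A/E9a;NRASG12D, and the GFP-positive, viable cells were sorted from the spleen. The counts of all libraries carry the label WT tumor cells, which does not say what WT refers to. No label gives the age of the mice. No label ties a library to a mouse of its own either, so p-values reflect the spread between libraries alone, and that spread may be technical.

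Total counts were between 25794869 and 32571961 in the panobinostat libraries, numbered 1, 5 and 6 after their columns, and between 27259492 and 29548544 in the vehicle libraries, numbered 2, 3 and 4. Levels are in CPM, the count of a gene scaled to a fixed library size and corrected by TMM factors for RNA composition. On this scale a single count was worth 0.0315 to 0.0403 CPM in panobinostat libraries and 0.0323 to 0.0355 CPM in vehicle libraries. Each gene's values are given in the order 1, 5, 6 for panobinostat and 2, 3, 4 for vehicle. The receptor Kit of blood progenitors was at 163 to 321 CPM with panobinostat and at 210.1 to 221 CPM with vehicle, and the erythroid factor Gata1 was at 315 to 441 CPM with panobinostat and at 246 to 262 CPM with vehicle. The myeloid genes Itgam and Mpo were low in both groups. Itgam was at 0.189 to 0.489 CPM in panobinostat libraries and at 0.206 to 0.390 CPM in vehicle libraries. Mpo was at 0.196 to 1.13 CPM with panobinostat and at 0.377 to 0.905 CPM with vehicle. The myeloid factor Spi1 was higher, at 80.2 to 96.3 CPM with panobinostat and at 60.6 to 72.0 CPM with vehicle. Csf3r was at 0.914 to 4.82 CPM with panobinostat and at 0.343 to 0.567 CPM with vehicle. The progenitor gene Cd34 was at 2.90, 32.3 and 9.02 CPM with panobinostat and at 7.11 to 11.3 CPM with vehicle. The leukocyte gene Ptprc was at 1.77 to 4.43 CPM with panobinostat and at 2.41 to 3.39 CPM with vehicle. Lyz2, a myeloid gene, was at 2.06 to 2.93 CPM with panobinostat and at 1.45 to 3.05 CPM with vehicle. Hemoglobin genes took 3.22% to 6.72% of all counts with panobinostat and 0.614% to 0.847% with vehicle. The column names carry 2 further numbers of unstated meaning. The first of them takes no value in both groups, so any batch it marks and the treatment cannot be told apart. The last is 3 in every library except panobinostat library 1, where it is 1, so results without that library are also results within a single value of this number.

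In the usual route, eIF2 carries the initiator tRNA to the small ribosomal subunit, where eIF1, eIF1A, eIF3 and eIF5 bind as well. eIF4E holds the mRNA cap, eIF4G bridges it to eIF3, and the helicase eIF4A unwinds the leader as the complex scans for the start codon. After eIF5 has triggered GTP hydrolysis on eIF2, eIF5B joins the large subunit, and eIF2B recharges eIF2 with GTP. Phosphorylation of eIF2 by stress kinases blocks eIF2B, and the eIF4E-binding proteins block eIF4E until mTORC1 releases them, so both steps are known control points in leukemia and other blood cells.

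Of the 52 genes, 49 were abundant enough to test, and 5 of them were lower with panobinostat, while none was higher, at an adjusted p under 0.05 by edgeR's quasi-likelihood test over all tested genes. The 5 were Eif2b1, Eif2b3, Eif3e, Eif3l and Eif4e, which lie in 3 different complexes. The share called was 10.2%, against 21.0% among all 12916 tested genes. The order of these shares turned with some other settings. DESeq2 called 30.6% of the initiation factor genes and 27.6% of all tested genes. Voom with sample weights called 40.8% and 35.0%, scaling by library size alone 40.8% and 24.8%, and edgeR without panobinostat library 1 34.0% and 31.1%. With the remaining settings the order held. These were voom without weights (10.2% and 20.4%), robust shrinkage, RLE and upper-quartile scaling (10.2% and 21.0%). They also included no filter on low counts (9.80% and 13.6%), a filter of 1 CPM in 3 libraries (12.2% and 22.3%) and leaving out any other library. In the lower direction, 9.72% of all tested genes were called and in the higher direction 11.3%. At an unadjusted p under 0.05, 19 of the 49 initiation factor genes (38.8%) were lower and 1 (2.04%), Eif5b, was higher, against 17.7% lower and 19.1% higher of all tested genes. DESeq2 called 14 of the initiation factor genes lower and 1 higher, beside 1694 lower and 1872 higher of all 12916 tested genes.

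Changes were small throughout, with 37 of 49 log2 fold changes below 0 and a median of -0.19 (interquartile range -0.27 to -0.04), against a median of 0.01 (interquartile range -0.25 to 0.33) over all tested genes. The extremes were -0.43 for Eif2b3 and 0.28 for Eif3f, so no gene differed by more than 1.34-fold. The panobinostat libraries all lay below the vehicle libraries for 24 genes and all above them for 4, Eif2d, Eif3f, Eif4e2 and Eif5b, while the groups overlapped for 21. Over all tested genes, 44.6% had groups that did not overlap, 22.7% lower and 21.9% higher.

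**Figure D1:**
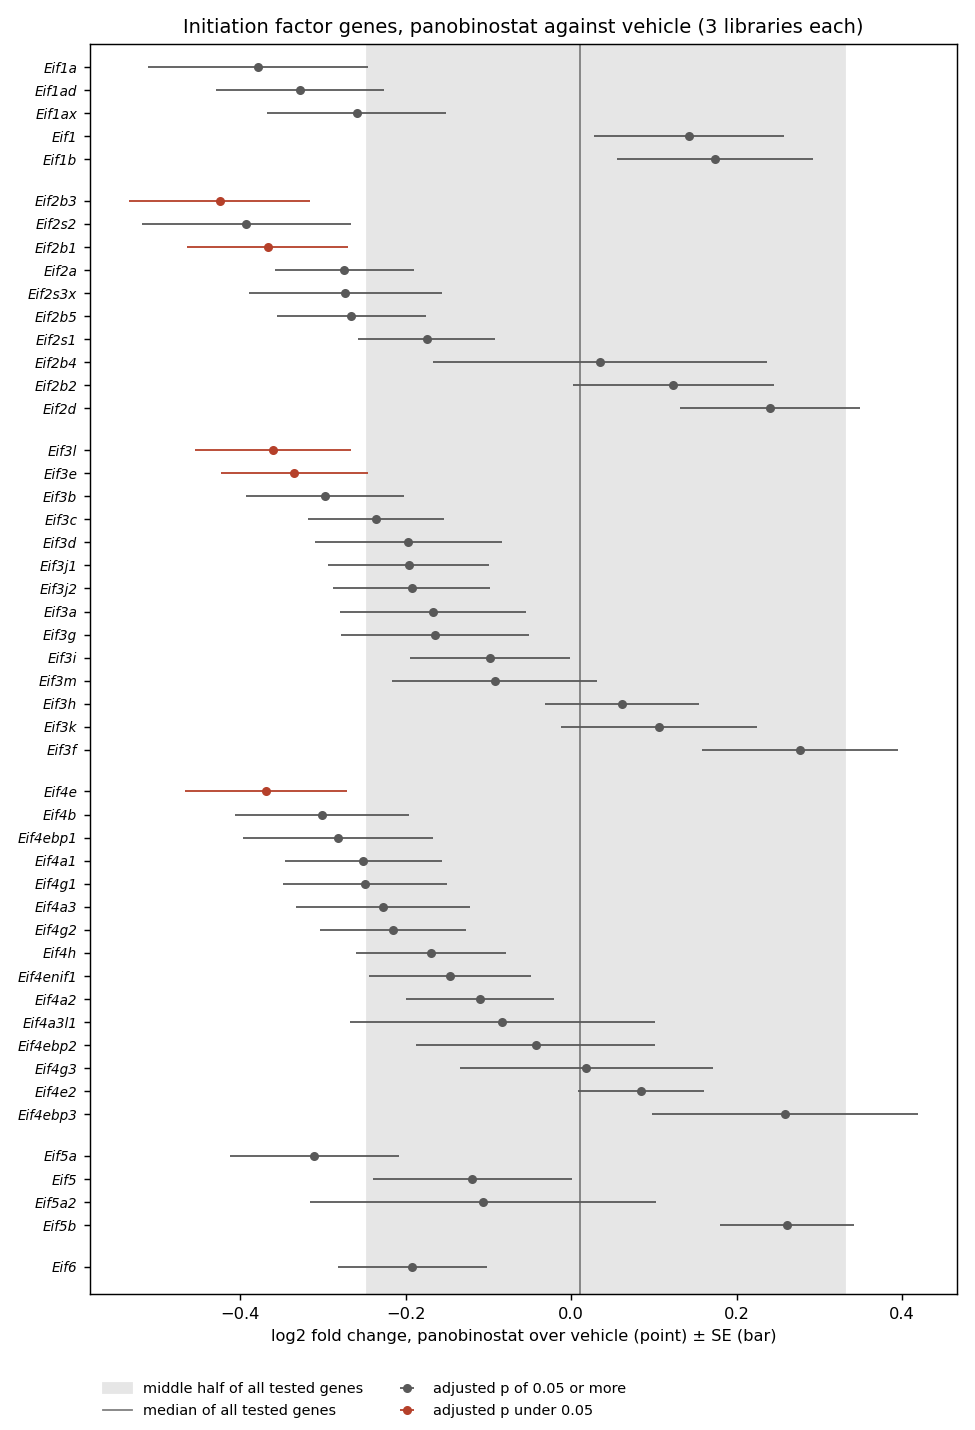
Log2 fold change of each of the 49 tested initiation factor genes, panobinostat over vehicle (x axis, edgeR estimate as a point, bar ± SE, 3 libraries per group), with genes grouped by family down the y axis and sorted within it. The grey band is the interquartile range of all tested genes and the line their median. The 5 red points, between -0.43 and -0.33, are the genes called at an adjusted p under 0.05, and 37 of the 49 points lie below 0.

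The Eif1 genes, which include those of the start codon factors eIF1 and eIF1A, had log2 fold changes on both sides of 0, and none was called. Eif1, the start codon gatekeeper itself, was at 456, 359 and 369.8 CPM with panobinostat and at 342, 369 and 362 CPM with vehicle (log2 fold change 0.14 ± 0.11, SE, adjusted p = 0.40). Panobinostat library 1 stood well above all vehicle libraries, library 6 exceeded the highest of them by less than 1 CPM, and library 5 lay within their range. Its paralog Eif1b had a log2 fold change of 0.17. The 3 genes that encode eIF1A or a protein with its domain had negative values, -0.38 for Eif1a, -0.33 for Eif1ad and -0.26 for Eif1ax (adjusted p = 0.083, 0.059 and 0.13), and the groups did not overlap for Eif1ad and Eif1ax.

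Among the Eif2 genes, 2 of 10 tested were called, both lower, against 9.72% lower and 21.0% in either direction of all tested genes. Both encode subunits of the exchange factor eIF2B. Eif2b3 encodes the gamma subunit, which sits beside the catalytic epsilon subunit (Entrez gene 108067, GRCm38 chromosome 4, 117019399 to 117086852). It was at 28.9, 26.0 and 30.1 CPM with panobinostat and at 41.6, 35.6 and 36.9 CPM with vehicle, so every panobinostat library was below every vehicle library. Its log2 fold change was -0.43 ± 0.11 (adjusted p = 0.034), or 25.5% lower. Eif2b1 encodes the alpha subunit, which belongs to the regulatory core that binds phosphorylated eIF2 (Entrez gene 209354, chromosome 5, 124570214 to 124579131). It was at 50.9, 43.6 and 51.0 CPM with panobinostat and at 64.6, 59.0 and 64.1 CPM with vehicle, again without overlap (log2 fold change -0.37 ± 0.10, adjusted p = 0.038).

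The other eIF2B subunits did not pass the test, and their values spread to both sides of 0. Eif2b5, the catalytic epsilon subunit, was at 98.3, 90.2 and 92.8 CPM with panobinostat and at 123, 106 and 109 CPM with vehicle (log2 fold change -0.27 ± 0.09, adjusted p = 0.075), with no overlap of the groups. Eif2b2, the beta subunit of the regulatory core, had a log2 fold change of 0.12 (adjusted p = 0.50). The delta subunit Eif2b4 was at 58.9, 32.7 and 40.4 CPM with panobinostat and at 44.0, 41.2 and 43.8 CPM with vehicle, so panobinostat library 1 was the highest and library 5 the lowest of all 6. Its log2 fold change of 0.03 fell to -0.23 without panobinostat library 1 and was -0.075 when libraries were scaled by size alone.

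The 3 tested subunits of eIF2 itself were each lower in every panobinostat library than in any vehicle library, yet none was called. The same separation was found for 22.7% of all tested genes. Eif2s1, the alpha subunit that the stress kinases phosphorylate, was at 188, 185 and 200.0 CPM with panobinostat and at 218, 207 and 221 CPM with vehicle (log2 fold change -0.17 ± 0.08, adjusted p = 0.17). The beta subunit Eif2s2 was at 175, 128 and 153 CPM with panobinostat and at 206, 188 and 205 CPM with vehicle (-0.39 ± 0.13, adjusted p = 0.065). Panobinostat library 5 was the lowest library for Eif2s2, and only Eif2b3 had a lower log2 fold change among the Eif2 genes. The X-linked gamma subunit Eif2s3x, which binds the initiator tRNA and GTP, was at 309.9, 363 and 402 CPM with panobinostat and at 435, 409 and 455 CPM with vehicle (-0.27 ± 0.12, adjusted p = 0.14). Its Y-linked paralog Eif2s3y was too low to test, with 7, 3 and 5 counts with panobinostat and 11, 15 and 5 counts with vehicle. Of the counts of the pair, Eif2s3y gave 0.0736%, 0.0333% and 0.0392% with panobinostat and 0.0816%, 0.130% and 0.0376% with vehicle. The exact 2-sided permutation test of these shares gave p = 0.3 (smallest possible 0.1).

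Eif2a and Eif2d encode single proteins that can bring an initiator or other tRNA to the ribosome without eIF2, and they pointed in opposite directions. Eif2a had a log2 fold change of -0.27 (adjusted p = 0.056) with no overlap between groups. Eif2d was at 121, 98.6 and 99.5 CPM with panobinostat and at 95.2, 90.4 and 84.8 CPM with vehicle (log2 fold change 0.24 ± 0.11, adjusted p = 0.15). All panobinostat libraries were above all vehicle libraries for Eif2d, by a margin of a few CPM. Eif2a overlaps Serp1 and Eif2d overlaps Rassf5 in the RefSeq annotation, and reads of such overlaps cannot be assigned, because the strand setting was not among the sources used.

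eIF3 is the largest of the initiation complexes. Of the 14 Eif3 genes, 2 (14.3%) were called, both lower, against 9.72% lower and 21.0% in either direction of all tested genes. Both encode subunits with a PCI domain, the fold that holds the core of the complex together. Eif3l (Entrez gene 223691, chromosome 15, 79075223 to 79094400) was at 228, 199.7 and 235 CPM with panobinostat and at 289, 279 and 284 CPM with vehicle (log2 fold change -0.36 ± 0.09, adjusted p = 0.036). The vehicle libraries lay close together, and the highest panobinostat library was below all of them. Eif3e (Entrez gene 16341, chromosome 15, 43250040 to 43282736) was at 329, 306 and 316 CPM with panobinostat and at 378, 396 and 425 CPM with vehicle (-0.33 ± 0.09, adjusted p = 0.038). In both genes the groups did not overlap.

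The 6 PCI subunits, encoded by Eif3a, Eif3c, Eif3e, Eif3k, Eif3l and Eif3m, had a median log2 fold change of -0.20, with 5 of 6 negative. Eif3a, the scaffold subunit, was at 679, 762 and 866 CPM with panobinostat and at 838, 849 and 903 CPM with vehicle (-0.17 ± 0.11, adjusted p = 0.32). Its groups overlapped, because panobinostat library 6 exceeded vehicle libraries 2 and 3. Eif3c, which contacts eIF1 and eIF5, had -0.24 (adjusted p = 0.081) without overlap, Eif3m -0.09 and Eif3k 0.11.

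The 2 subunits with an MPN domain, encoded by Eif3f and Eif3h, had positive values. Eif3f (Entrez gene 66085, chromosome 7, 108934415 to 108941942) was at 439, 403 and 360.0 CPM with panobinostat and at 352, 349 and 291 CPM with vehicle (log2 fold change 0.28 ± 0.12, adjusted p = 0.14). The lowest panobinostat library was above the highest vehicle library, but the gene missed the threshold. Eif3h was at 324, 298 and 286 CPM with panobinostat and at 272, 305 and 293 CPM with vehicle (0.06 ± 0.09, adjusted p = 0.67, and -0.046 when libraries were scaled by size alone). Set against each other within a library, the ratio of Eif3f counts to Eif3l counts was 1.92, 2.02 and 1.53 with panobinostat and 1.22, 1.25 and 1.02 with vehicle, a pair chosen after the values were seen and given without a test. This ratio was higher in each panobinostat library than in any vehicle library.

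The 4 subunits outside this core, Eif3b, Eif3d, Eif3g and Eif3i, all had negative values, -0.30, -0.20, -0.16 and -0.10, and none was called (adjusted p from 0.065 to 0.49). Among them only Eif3b had groups that did not overlap. Eif3j, a loosely bound subunit that helps to control the mRNA channel, has the near-identical mouse copies Eif3j1 and Eif3j2, whose reads may have been shared. They had log2 fold changes of -0.20 and -0.19, and the ratio of Eif3j2 to Eif3j1 counts stayed between 0.812 and 0.839 in the panobinostat libraries and between 0.819 and 0.823 in the vehicle libraries.

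**Figure D2:**
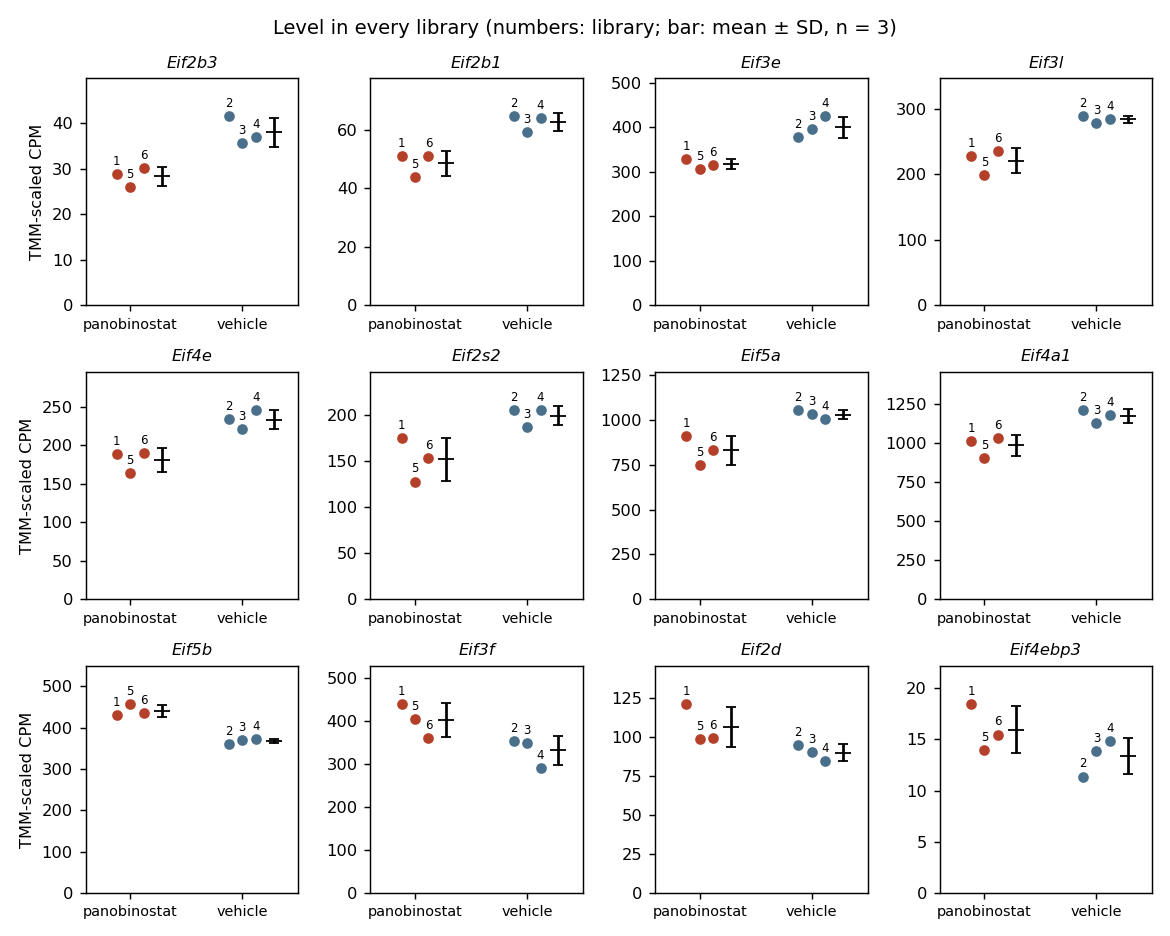
Level of 12 initiation factor genes in each library (y axis, TMM-scaled CPM from 0, a separate scale per gene), with panobinostat at the left and vehicle at the right of each panel, points numbered by library, and the mean ± SD (n = 3) beside them. The first 5 panels are the called genes, from Eif2b3 (mean 28.3 CPM with panobinostat and 38.0 CPM with vehicle) to Eif4e (181 CPM with panobinostat and 233 CPM with vehicle). Eif5b, Eif3f and Eif2d show the opposite order, and Eif4ebp3 overlaps.

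The Eif4 genes act at the mRNA cap, and 1 of the 15 tested (6.67%) was called, lower with panobinostat. Among all tested genes, 9.72% were called lower and 21.0% in either direction. Eif4e, the cap-binding protein (Entrez gene 13684, chromosome 3, 138526191 to 138559696), was at 189, 163 and 190.1 CPM with panobinostat and at 234, 221 and 246 CPM with vehicle (log2 fold change -0.37 ± 0.10, adjusted p = 0.037). That is 22.6% lower, with each panobinostat library below each vehicle library. Eif4e2, a cap-binding protein that represses the mRNAs it binds, was at 101, 96.6 and 103 CPM with panobinostat and at 92.2, 94.8 and 96.4 CPM with vehicle (0.08 ± 0.08, adjusted p = 0.45, and -0.021 when libraries were scaled by size alone). Its groups were separated by less than 1 CPM. The remaining cap-binding genes were near the detection limit. Eif4e3 had 5, 10 and 3 counts with panobinostat and 5, 6 and 2 counts with vehicle. Eif4e1b, known from oocytes, had 0 counts in all 6 libraries, which allows a level of up to 0.0946 to 0.121 CPM in the panobinostat libraries and 0.0969 to 0.106 CPM in the vehicle libraries (3 counts per library, counting error only).

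The helicase and its cofactors had negative values in all 4 genes, and none passed the test. Eif4a1, the main helicase, was at 1011, 904 and 1032 CPM with panobinostat and at 1209, 1124 and 1176 CPM with vehicle (log2 fold change -0.25 ± 0.10, adjusted p = 0.10). The groups did not overlap. Its paralog Eif4a2 was at 295, 273 and 282 CPM with panobinostat and at 310.1, 285 and 323 CPM with vehicle (-0.11 ± 0.09, adjusted p = 0.40). Eif4a2 made up 22.6%, 23.2% and 21.5% of the summed Eif4a1 and Eif4a2 counts with panobinostat and 20.4%, 20.2% and 21.5% with vehicle, or 22.4% ± 0.848 with panobinostat and 20.7% ± 0.698 with vehicle (SD, n = 3 each). The exact 2-sided permutation test gave p = 0.2, where 0.1 is the smallest value that 3 libraries against 3 can reach. The cofactors Eif4b and Eif4h had -0.30 (adjusted p = 0.081) and -0.17 (adjusted p = 0.22), both without overlap between groups. Eif4a3, a relative that marks spliced exon junctions, had -0.23, and Eif4a3l1, a near-copy of it that may share its reads, had -0.08, with 6.73 ± 1.14 CPM with panobinostat and 7.13 ± 0.757 CPM with vehicle (SD, n = 3 each).

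None of the 3 scaffold genes was called, and the groups overlapped only for Eif4g3. Eif4g1, the main bridge between cap and ribosome, was at 603, 607 and 659 CPM with panobinostat and at 810.5, 702 and 709.9 CPM with vehicle (log2 fold change -0.25 ± 0.10, adjusted p = 0.11), with no overlap. Eif4g2, which lacks the eIF4E-binding site and serves cap-independent starts, had -0.22 (adjusted p = 0.12) and no overlap. For Eif4g3 the values were 122, 182 and 164 CPM with panobinostat and 162, 159 and 142 CPM with vehicle (0.02 ± 0.15, adjusted p = 0.95). Panobinostat library 1 was the lowest and library 5 the highest of all 6 for Eif4g3. Its direction turned without panobinostat library 5 (-0.11) or 6 (-0.019), without vehicle library 4 (-0.043) and under scaling by library size (-0.086). Eif4enif1, which carries eIF4E into the nucleus and into RNA granules, had -0.15.

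The inhibitors that compete with eIF4G for eIF4E had log2 fold changes on both sides of 0, and none was called. Eif4ebp1 was at 42.2, 33.1 and 36.2 CPM with panobinostat and at 48.0, 43.5 and 44.1 CPM with vehicle (log2 fold change -0.28 ± 0.12, adjusted p = 0.12), without overlap. Eif4ebp2 was at 102, 138 and 142 CPM with panobinostat and at 138, 138 and 118 CPM with vehicle (-0.04 ± 0.14, adjusted p = 0.85), with panobinostat library 1 apart from the rest. Eif4ebp3 was at 18.5, 14.0 and 15.5 CPM with panobinostat and at 11.4, 13.9 and 14.8 CPM with vehicle (0.26 ± 0.16, adjusted p = 0.28). The summed counts of the 3 inhibitors over the counts of Eif4e were 0.861, 1.14 and 1.02 with panobinostat and 0.843, 0.886 and 0.720 with vehicle, or 1.01 ± 0.139 with panobinostat and 0.817 ± 0.0862 with vehicle (SD, n = 3 each). This difference did not pass the exact 2-sided permutation test (p = 0.2, smallest possible 0.1).

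None of the 4 Eif5 genes passed the test, and Eif5a and Eif5b differed in opposite directions without overlap between groups. Eif5a, whose product carries the modified residue hypusine and helps elongation and termination, was at 913, 751 and 830.4 CPM with panobinostat and at 1056, 1031 and 1006 CPM with vehicle (log2 fold change -0.31 ± 0.10, adjusted p = 0.069). All its panobinostat libraries were below the vehicle libraries, in a gene that overlaps Gps2. Its paralog Eif5a2 was at 10.6, 6.37 and 9.59 CPM with panobinostat and at 10.3, 8.79 and 9.49 CPM with vehicle (-0.11 ± 0.21, adjusted p = 0.74). Eif5a2 gave 1.14%, 0.841% and 1.14% of the counts of the pair with panobinostat and 0.966%, 0.845% and 0.935% with vehicle (exact 2-sided permutation p = 0.4).

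Eif5b, the GTPase that joins the ribosomal subunits (Entrez gene 226982, chromosome 1, 37998010 to 38055579), was at 430.3, 458 and 435 CPM with panobinostat and at 362, 369.7 and 373 CPM with vehicle. All panobinostat libraries were above all vehicle libraries, and the spread within each group was small, with 441 ± 14.8 CPM with panobinostat and 368 ± 5.79 CPM with vehicle (SD, n = 3 each). Its log2 fold change was 0.26 ± 0.08 (edgeR adjusted p = 0.060). DESeq2, voom with sample weights and a filter of 1 CPM in 3 libraries each put it past the threshold. These were 3 of the 9 alternatives that keep every library, over which its log2 fold change ran from 0.16 to 0.27. It was called in 1 of the 6 fits without a library. Eif5b overlaps Rev1 in the annotation. Eif5, the activator of GTP hydrolysis on eIF2, was at 308, 288 and 294 CPM with panobinostat and at 376, 287 and 302 CPM with vehicle (-0.12 ± 0.12, adjusted p = 0.50), and vehicle library 2 alone stood apart. Eif6, which keeps free large subunits from joining too early, was at 98.3, 84.4 and 88.9 CPM with panobinostat and at 98.8, 106 and 105 CPM with vehicle (-0.19 ± 0.09, adjusted p = 0.17), separated by less than 1 CPM.

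Per kilobase of annotated exon, Eif5a was the most abundant of all these genes, at 349.8 ± 34.0 CPM per kb with panobinostat and 434 ± 10.6 CPM per kb with vehicle (SD, n = 3 each). Eif4a1 came next, at 227 ± 15.8 CPM per kb with panobinostat and 269.9 ± 9.85 CPM per kb with vehicle. These lead their families by coding length too, as does Eif2s3x among the Eif2 genes (94.0 ± 12.1 CPM per kb of exon with panobinostat and 114 ± 6.14 with vehicle). At the other end, Eif5a2 was at 1.76 ± 0.436 CPM per kb with panobinostat and 1.90 ± 0.151 with vehicle, and Eif4a3l1 at 4.28 ± 0.724 with panobinostat and 4.53 ± 0.481 with vehicle. Eif2b3, the lowest of the called genes, was at 4.34 ± 0.324 CPM per kb with panobinostat and 5.83 ± 0.480 with vehicle. Although eIF3 subunits are made for the same complex, their vehicle levels spanned 5.51-fold per kb of exon, from Eif3d to Eif3h, and 3.26-fold per kb of coding sequence, from Eif3d to Eif3j1.

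**Figure D3:**
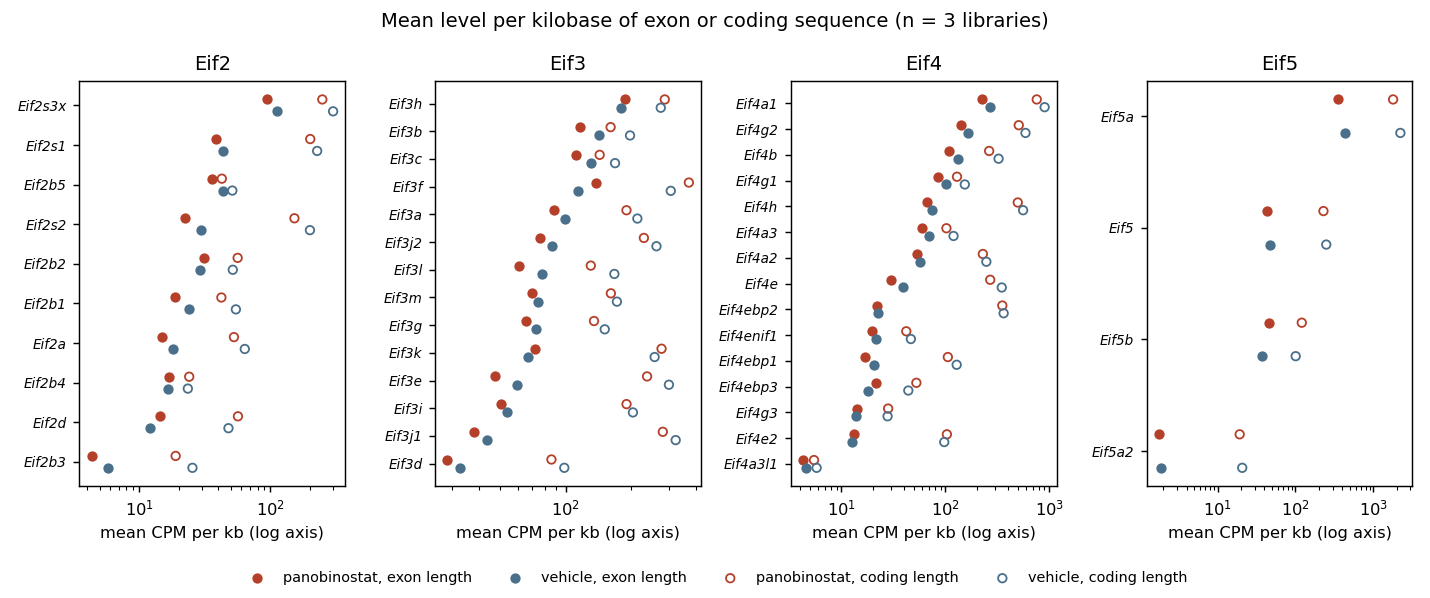
Mean level of the tested Eif2, Eif3, Eif4 and Eif5 genes per kilobase of exon (filled) or coding sequence (open), in CPM per kb on a log axis, with panobinostat in red above vehicle in blue (n = 3 libraries each). Genes run down the page by their vehicle level per kb of exon, and Eif5a, Eif4a1 and Eif2s3x lead their families by either length.

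The decrease was not spread evenly over the panobinostat libraries. Library 5 was the lowest of all 6 libraries for 31 of the 49 genes and the lowest of its group for 39, while library 1 was the lowest of all 6 for 7 and library 6 for none. The median log2 ratio to the vehicle mean was -0.10, -0.28 and -0.14 in panobinostat libraries 1, 5 and 6 and 0.02, -0.03 and 0.02 in vehicle libraries 2, 3 and 4. Panobinostat library 1 was also the highest of all 6 libraries for 13 genes, so it held both high and low values. As a share of all counts, the 52 genes took 1.21%, 1.16% and 1.28% with panobinostat and 1.51%, 1.44% and 1.47% with vehicle. This share does not depend on the TMM factors, but the hemoglobin genes took a larger share in the same libraries, and their part in the difference was not tested. In bulk RNA, fewer cells of a type and less RNA per cell cannot be told apart.

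**Figure D4:**
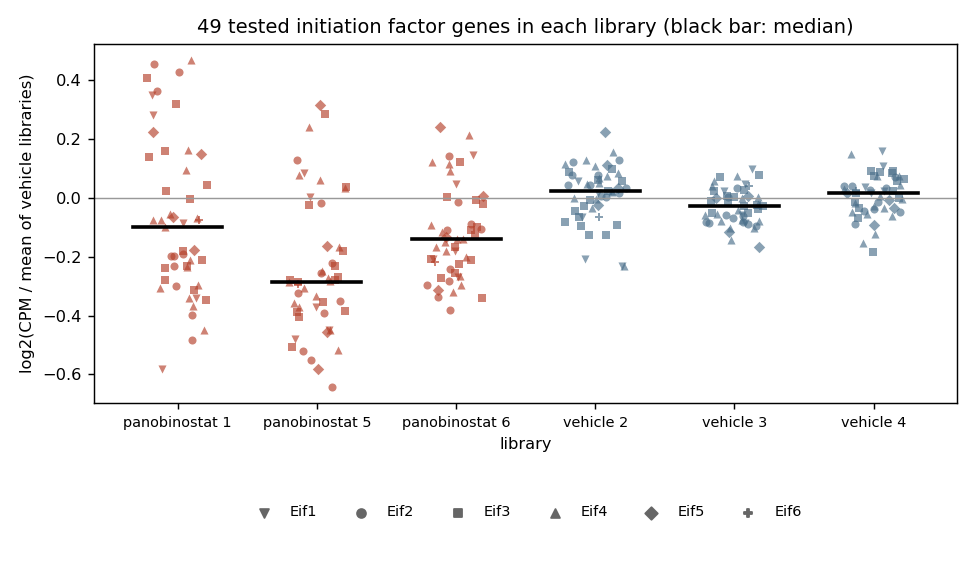
Log2 ratio of the CPM in each library to the mean CPM of the vehicle libraries (y axis) for the 49 tested initiation factor genes (points, shaped by family), with panobinostat libraries 1, 5 and 6 left of vehicle libraries 2, 3 and 4 and a black bar at each median. The medians were -0.10, -0.28 and -0.14 with panobinostat, and the points of library 1 spread furthest upwards.

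The 5 calls depended on single libraries, as did the share called over all tested genes. All 5 were lost without panobinostat library 5, without panobinostat library 6 and without any single vehicle library, and all 5 were kept without panobinostat library 1, with adjusted p between 0.021 and 0.16 and log2 fold changes between -0.47 and -0.29 over these fits. Without panobinostat library 1, 17 of the initiation factor genes were called, 16 lower and 1 higher, and 4056 genes were called in all. Of all tested genes, edgeR called 21.0% with every library and 31.1% without panobinostat library 1. It called 12.5% and 15.9% without panobinostat library 5 or 6, and 4.65%, 9.54% and 3.32% without vehicle library 2, 3 or 4. Counts of the lists below in fits without a library stand against these shares.

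Among the regulators of eIF2, the share of genes called higher was near that of all tested genes. Of 10 listed eIF2 kinases, phosphatase adaptors and partners, 1 was called higher and none lower by edgeR (median log2 fold change 0.05), with 3 higher and 3 lower at an unadjusted p under 0.05 and 3 higher and none lower by DESeq2. Of all 12916 tested genes, 11.3% were called higher and 9.72% lower by edgeR, and 1872 higher and 1694 lower by DESeq2. The called gene of the list was Eif2ak2, the interferon-induced kinase PKR that senses double-stranded RNA and phosphorylates eIF2 alpha. Eif2ak2 was at 179, 154 and 147 CPM with panobinostat and at 81.1, 67.9 and 69.2 CPM with vehicle, with every panobinostat library far above every vehicle library (1.14 ± 0.11, or 2.20-fold, adjusted p = 0.0036). It stayed called without any single library.

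Of 17 genes of mTORC1, the S6 kinases and regulators of cap binding, 3 were called higher and none lower by edgeR (median -0.03), with 4 higher and 1 lower at an unadjusted p under 0.05 and by DESeq2. The 3 of 17 make 17.6%, against 11.3% of all tested genes called higher. Mknk1, a kinase that phosphorylates eIF4E, was at 127, 134 and 116 CPM with panobinostat and at 71.6, 84.6 and 78.9 CPM with vehicle (0.69 ± 0.10, adjusted p = 0.0072). Rps6kb2, an S6 kinase, was at 75.7, 56.3 and 49.6 CPM with panobinostat and at 40.1, 36.2 and 35.2 CPM with vehicle (0.70 ± 0.16, adjusted p = 0.025). Pdcd4, an inhibitor of eIF4A, was at 172, 184 and 147 CPM with panobinostat and at 119, 131 and 121 CPM with vehicle (0.44 ± 0.11, adjusted p = 0.030). The groups did not overlap in any of the 3, and the count was 1 without any single vehicle library and 2 without panobinostat library 5.

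Proteins that help scanning, reinitiation and ribosome recycling had the largest share of calls among the translation lists, 6 of 11 tested genes (54.5%) lower and none higher (median -0.32), against 9.72% of all tested genes called lower. The count was also 6 by DESeq2, but 4 with voom, 4 with RLE scaling and 2 with no filter on low counts. Bzw2, a competitor of eIF5, was at 106, 123 and 141 CPM with panobinostat and at 192, 186 and 183 CPM with vehicle (-0.60 ± 0.11, adjusted p = 0.015). Abce1, which splits ribosomes for reuse, was at 275, 256 and 306 CPM with panobinostat and at 361, 344 and 385 CPM with vehicle (-0.38 ± 0.10, adjusted p = 0.038). Denr, a reinitiation factor, was at 60.2, 56.5 and 62.0 CPM with panobinostat and at 79.8, 70.0 and 73.1 CPM with vehicle (-0.32 ± 0.09, adjusted p = 0.043). The other called genes were Bzw1, Dhx29 and Ncbp1. The count of 6 was 0 without vehicle library 2 or 4, 1 without vehicle library 3 or panobinostat library 5, and 3 without panobinostat library 6.

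Among the 20 cytosolic aminoacyl-tRNA synthetases, which charge tRNAs, all log2 fold changes were negative (median -0.25) and 5 (25%) were called lower, against 9.72% of all tested genes. Rars was at 101, 84.3 and 105 CPM with panobinostat and at 135, 135 and 144 CPM with vehicle (-0.51 ± 0.10, adjusted p = 0.018). Tars was at 137, 115 and 139.6 CPM with panobinostat and at 179.9, 173 and 191 CPM with vehicle (-0.47 ± 0.10, adjusted p = 0.021). Iars was at 219, 176 and 216 CPM with panobinostat and at 279, 269 and 288 CPM with vehicle (-0.45 ± 0.11, adjusted p = 0.029). The groups did not overlap in these 3 genes, and Lars and Eprs were called too. The count of 5 was 0 without any single vehicle library, 2 without panobinostat library 5, 3 without panobinostat library 6 and 13 without panobinostat library 1.

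The elongation, poly(A)-binding and termination lists had 1 call each, all lower, and their 1 of 8, 1 of 7 and 1 of 4 tested genes stand against 9.72% of all tested genes. Eef1d, an exchange subunit of the elongation factor eEF1, was at 143, 137 and 161 CPM with panobinostat and at 207, 202 and 208 CPM with vehicle (-0.49 ± 0.09, adjusted p = 0.014). Paip2b, an inhibitor of the poly(A)-binding protein, was at 41.2, 51.2 and 53.8 CPM with panobinostat and at 69.4, 66.8 and 68.5 CPM with vehicle (-0.49 ± 0.11, adjusted p = 0.027). Gspt1, the release factor eRF3a, was at 221, 217 and 249.95 CPM with panobinostat and at 296, 278 and 283 CPM with vehicle (-0.32 ± 0.09, adjusted p = 0.0496). The groups did not overlap in any of the 3, but the calls rested on single libraries or settings. The elongation list had no call without vehicle library 2 or 4, and the poly(A)-binding list none without any single vehicle library. The termination list kept its call in 1 of 6 fits without a library, the one without panobinostat library 6, and lost it with RLE scaling, with no filter on low counts and with a filter of 1 CPM in 3 libraries. In the poly(A)-binding list DESeq2 called 2 higher and 2 lower, and 2 higher and 3 lower had an edgeR unadjusted p under 0.05. Of all 12916 tested genes, DESeq2 called 1872 higher and 1694 lower.

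By edgeR, none of 6 enzymes of hypusine and polyamine synthesis was called in either direction (median -0.20). Nor was any of 3 mitochondrial initiation factors (median -0.07) or 82 cytosolic ribosomal proteins (median -0.02), against 21.0% of all tested genes. DESeq2 called none in the smaller lists and 2 lower ribosomal protein genes. Voom with sample weights called 13 ribosomal protein genes lower (median -0.11), library size alone 3, and the fit without panobinostat library 1 called 4. Each of these also called 1 hypusine or polyamine gene lower. Of all tested genes they called 35.0%, 24.8% and 31.1% in either direction. At an unadjusted p under 0.05, edgeR had 2 lower hypusine and polyamine genes, 2 lower ribosomal protein genes and none of the mitochondrial factors, and none higher in these lists. Many ribosomal protein genes have copies that may share reads.

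Promoter windows of 250 bases before the annotated start, from RefSeq on GRCm38.p6, were at hand for 40 of the 52 genes and searched for motifs on both strands. The E-box CACGTG, which MYC and other helix-loop-helix factors bind and which reads the same on both strands, was in 9 of 40 (22.5%), against 9.77% of 9684 tested genes with a window and 6.02% of all 32851 windows. The 9 were Eif1b, Eif3f, Eif3k, Eif4a1, Eif4e, Eif4g1, Eif4h, Eif5a and Eif5a2. Their log2 fold changes ran from -0.37 for Eif4e to 0.28 for Eif3f, so genes with this motif lay on both sides of 0. The ETS motif CCGGAAGT was in 5 of 40 (12.5%), against 7.08% of tested genes. For the CCAAT box the share was 32.5%, against 41.2%, and for TATAAA 10.0%, against 7.81%. These matches describe letters in a window, not binding, and several genes have more than 1 window, 1 for each annotated start, which gives them more chances of a match.

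Windows of genes with low and with high values are shown, with the E-box in capitals. They are the called Eif4e, for which 30 bases around each of its E-boxes are given, then Eif4a1 and Eif5a with lower and Eif3f with higher values, for which the whole window is given 5′ to 3′ on the strand of the gene. Eif4e lies at chr3:138527028-138527057 and chr3:138527192-138527221 (plus strand), with the motif 228 and 64 bases before a second annotated start that lies inside the gene. The window at the outermost start of Eif4e holds no E-box. Eif4a1 covers chr11:69672424-69672673 (minus strand, 189 bases before the start), Eif5a chr11:69921387-69921636 (minus strand, 74 bases before a start inside the gene, while the window at its outermost start holds none) and Eif3f chr7:108934165-108934414 (plus strand, 68 bases).
Eif4e first: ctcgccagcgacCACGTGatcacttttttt
Eif4e second: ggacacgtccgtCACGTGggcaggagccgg
Eif4a1: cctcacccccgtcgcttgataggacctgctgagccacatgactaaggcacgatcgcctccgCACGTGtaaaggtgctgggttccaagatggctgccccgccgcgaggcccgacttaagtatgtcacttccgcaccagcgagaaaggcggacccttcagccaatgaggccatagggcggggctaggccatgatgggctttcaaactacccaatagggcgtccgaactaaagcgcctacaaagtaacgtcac
Eif5a: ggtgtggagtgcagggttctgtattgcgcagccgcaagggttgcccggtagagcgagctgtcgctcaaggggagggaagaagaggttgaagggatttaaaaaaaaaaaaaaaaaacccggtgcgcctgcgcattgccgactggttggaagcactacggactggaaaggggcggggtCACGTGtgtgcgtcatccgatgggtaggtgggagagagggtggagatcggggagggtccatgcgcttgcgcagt
Eif3f: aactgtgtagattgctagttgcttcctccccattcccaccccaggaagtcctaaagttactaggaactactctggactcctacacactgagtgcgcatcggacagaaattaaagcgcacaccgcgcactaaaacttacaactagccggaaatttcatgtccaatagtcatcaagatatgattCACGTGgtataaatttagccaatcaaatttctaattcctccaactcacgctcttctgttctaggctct

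Markers of other cell types of the spleen were also measured in these GFP-positive sorted cells. Several were higher in the panobinostat libraries, which does not show whether leukemia cells or other cells carried them, and their part in the small shifts of the initiation factors was not tested. The counts of called markers below stand against 11.3% of all tested genes called higher by edgeR and 9.72% called lower. The erythroid markers were also abundant with vehicle. The summed level of 6 erythroid markers was 21739 to 49743 CPM with panobinostat and 4662 to 5788 CPM with vehicle, with 5 of 6 called higher. For 4 markers of plasmacytoid dendritic cells it was 160.3 to 246 CPM with panobinostat and 77.8 to 90.3 CPM with vehicle, with Bst2, which interferon also induces, called among 3 tested. For 5 markers of conventional dendritic cells the sums were 17.5 to 23.0 CPM with panobinostat and 8.26 to 11.1 CPM with vehicle, with 2 of 3 tested called. For 8 red pulp macrophage markers they were 10.6 to 50.4 CPM with panobinostat and 7.06 to 14.7 CPM with vehicle, with Vcam1 alone called. For 6 stromal and endothelial markers they were 12.7 to 21.1 CPM with panobinostat and 2.06 to 2.62 CPM with vehicle, with 3 of 3 tested called. None of the 5 tested B cell markers, the 3 tested neutrophil markers and the 1 tested NK cell marker was called by edgeR, and no T cell marker was abundant enough to test. B cell markers summed to 6.73 to 20.4 CPM with panobinostat and 12.9 to 14.6 CPM with vehicle, and NK cell markers to 1.83 to 15.4 CPM with panobinostat and 4.10 to 10.5 CPM with vehicle. T cell markers summed to 0.645 to 1.63 CPM with panobinostat and 0.679 to 1.06 CPM with vehicle, and neutrophil markers to 1.96 to 6.53 CPM with panobinostat and 2.84 to 5.72 CPM with vehicle. No listed marker was at 0 in all 6 libraries.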

How the data were processed

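RNA-seq was done on mouse leukemia cells sorted from the spleen, in 3 panobinostat and 3 vehicle libraries, made from 1 ug of total RNA with an Illumina TruSeq kit, per the labels' protocols. The deposited table holds raw counts of reads for each Entrez gene ID. The submitters' processing notes name HISAT2 2.1.0, featureCounts (Subread 2.0.0), cutadapt 2.1, limma, FastQC 0.11.6 and bcl2fastq 2.17.1.14, with the build mm10. Annotation, strandedness and the treatment of multi-mapped reads are not among the sources used, so overlapping and near-identical genes may share reads.

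Entrez IDs were named from RefSeq for GRCm38 (25275 of 27179) and from GENCODE (18), and 1886 stayed unnamed. Columns were tied to groups by the word treated or control, they carry no replicate number, and 0 columns were left unused. Counts were filtered with filterByExpr, scaled by TMM and tested with edgeR's quasi-likelihood F test, with Benjamini-Hochberg adjustment over 12916 genes and a threshold of 0.05 (edgeR 4.0.16 in R 4.3.3, tested on simulated data). Standard errors are the absolute log2 fold change over the square root of F, and ± after a log2 fold change is this SE. Levels per kilobase use GENCODE exon or coding lengths. Shares within a library were compared by exact 2-sided permutation tests. The 15 alternatives covered DESeq2 1.42.0, voom of limma 3.58.1 with and without sample weights, robust shrinkage, 3 normalizations, 2 filters and leaving out each of the 6 libraries. With 3 libraries per group, a single library carries much of the estimated spread.

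The members, the translation lists and the marker lists were chosen with earlier results of these data known. Values in every library were given for called members whose groups do not overlap and for Eif2s1, Eif2s3x, Eif2s3y, Eif2b5, Eif3a, Eif3e, Eif3h, Eif4e, Eif4a1, Eif4a2, Eif4g1, Eif4ebp1, Eif4ebp2, Eif4ebp3, Eif5, Eif5a, Eif5a2 and Eif6, and for up to 3 called genes with the smallest p from each translation list. Kit, Gata1, Itgam, Mpo, Spi1, Csf3r, Cd34, Ptprc, Lyz2 and the other members described library by library (Eif1, Eif2b4, Eif2d, Eif2s2, Eif3f, Eif4e2, Eif4g3 and Eif5b) were chosen after their values were seen. Hbb-bt of the erythroid list was not analysed here.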

Additional observations from a re-analysis of the deposited data

How the results depend on the processing

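No paired analysis was possible because the count columns carry no replicate number. The 5 called genes, all lower, stayed called under all 9 alternatives that keep every library. Other totals of called initiation factor genes were 15 with DESeq2 (14 lower, 1 higher), 20 with voom and sample weights (19 lower, 1 higher, with 4520 genes called in all), 20 with library size alone (all lower) and 6 with a filter of 1 CPM in 3 libraries, where 1, Eif5b, was higher. Library size alone moved the median of all tested genes to -0.095, against 0.01 with TMM, and that of the initiation factors to -0.30, against -0.19, and gave 35.5% of all calls as higher, against 53.8%. Leaving out each library gave 0 to 17 called initiation factor genes, 0 to 1 higher and 0 to 16 lower, and 438 to 4056 called genes in all. None was called without panobinostat library 5 (1637 genes in all) or without vehicle library 2 (609), 3 (1259) or 4 (438), and 1, Eif1ad, without panobinostat library 6. The cause was not tested.

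No called gene turned its direction. Uncalled genes turned with voom (Eif2b4, -0.00077), with voom and sample weights (Eif2b4 -0.11, Eif3h -0.021, Eif3k -0.017, Eif4ebp2 0.10) and with library size alone (Eif2b4 -0.075, Eif3h -0.046, Eif3k -0.0020, Eif4e2 -0.021, Eif4g3 -0.086). Others turned when a library was left out, and their log2 fold changes then ran from -0.014 to 0.19 for Eif2b2, -0.23 to 0.21 for Eif2b4, -0.014 to 0.17 for Eif3k, -0.22 to 0.015 for Eif4a3l1, -0.13 to 0.10 for Eif4ebp2, -0.11 to 0.17 for Eif4g3, -0.20 to 0.0061 for Eif5 and -0.25 to 0.079 for Eif5a2. The span of eIF3 levels was 3.26-fold by coding length, against 5.51-fold by exon length. Eif2s3y, Eif4e3 and Eif4e1b had 15 counts or fewer in each library and were too low to test.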
